A study of Mus musculus with 6 samples.

Results

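Large pancreatic islets, over 200 µm in diameter, were set against medium islets of 100 to 200 µm. The 4 arrays of these classes, of 6 in the series, were paired by antibody, and 15762 of 45281 probes (13699 of them with a gene name, for 10039 genes) had a detection p under 0.05 on at least 2 of the 4 arrays and were tested. The islets came from BALB/c mice injected into the peritoneum with a monoclonal antibody, 25 µg on each of 4 occasions and 100 µg together, beginning at 2 weeks of age, and killed at 5 weeks of age. In the large class, 1 array held islets of mice given B29, which binds serpin B13, an inhibitor of cysteine proteases, and 1 held islets of mice given the control antibody IgG. The medium class had the same 2 arrays. All groups had been injected, so no untreated islets are compared here, and the labels do not say how many mice were pooled for an array or whether both classes of an antibody came from the same mice. The question was which genes differ between large and medium islets whichever antibody was given. The small islets, under 100 µm, are used only as an outside level.

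An islet of Langerhans is a cluster of hormone-secreting cells, mostly insulin-secreting beta cells, that lies within the exocrine pancreas. The exocrine tissue around it is made of acinar cells, which store digestive enzymes in zymogen granules, and of ducts. Collagenase digestion and picking free the islets from it to a varying degree, and acinar transcripts are so abundant that a little acinar tissue left on an islet is readily measured. In an islet, diameter is also related to vascular supply, to oxygen at the centre, and to the mix of endocrine, vascular, stromal and immune cells.

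Expression is given throughout as the log2 of the normalized intensity, and a difference is the level in large minus the level in medium islets, taken within B29 and within IgG. The detected share of probes was 32.7% (B29) and 33.3% (IgG) on the arrays of large islets, against 35.0% (B29) and 34.4% (IgG) on those of medium islets. The lowest level of a detected probe was between 4.47 and 4.54 on the 4 arrays. The 1267 tested probes that were detected on exactly 2 of the 4 arrays had a median level of 4.51, and the 2071 untested ones detected on 1 array had a median of 4.42, so the filter divides probes of nearly equal level. The label of the tissue was borne out by the hormones: Ins2 stood at 14.20 on all 4 arrays, the highest value the normalization gives, and Gcg, Sst and Ppy were at 11.95 or more on each. A pair of arrays stood apart from the rest in single cell types. The array of large B29 islets held far less acinar RNA than the other 3, and that of medium B29 islets held more immunoglobulin and MHC class II RNA than the other 3, so each result is given with both antibodies; the part of these cell types in other differences was not tested.

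Across all tested probes the limma fit called none at an adjusted p under 0.05 (0%, smallest adjusted p 0.940), while 679 (4.31%) had an unadjusted p under 0.05, of which 304 were higher (1.93%) and 375 lower (2.38%) in large islets. The precision is limited by the number of arrays, 2 in each class, with 1 residual degree of freedom beside 4.25 prior ones. The B29 and IgG pairs shared little: Pearson's r between the B29 and the IgG difference was 0.05 across the 15762 probes and 0.02 across 15727 probes without the acinar list, a description across probes that are not independent. Of 10039 genes with 1 probe each, 2721 (27.1%) were higher in large islets with both antibodies, 2361 (23.5%) were lower with both and 4957 (49.4%) had opposite signs. Both large arrays were above both medium arrays in 1876 genes (18.7%) and below them in 1600 genes (15.9%). These shares are the background for the counts that follow.

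Differences of size were few and lay mostly on the lower side. At least a 1.5-fold difference in the same direction with both antibodies was reached by 8 probes that were higher (0.0508%) and 47 that were lower (0.298%) in large islets by their measured levels, and at least a 2-fold one by 0 higher (0%) and 3 lower probes (0.019%). Those 3 were Sycn, Dmbt1 and Acsl6. Within B29 alone 121 probes were at least 2-fold lower (0.768%) and 5 higher (0.0317%), whereas within IgG alone 26 were lower (0.165%) and 27 higher (0.171%). Opposite differences of at least 1.5-fold were found in 18 probes that were higher with B29 and lower with IgG (0.114%) and in 21 that were the reverse (0.133%). The plot of the size difference with either antibody shows where these probes lie.

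**Figure D1:**
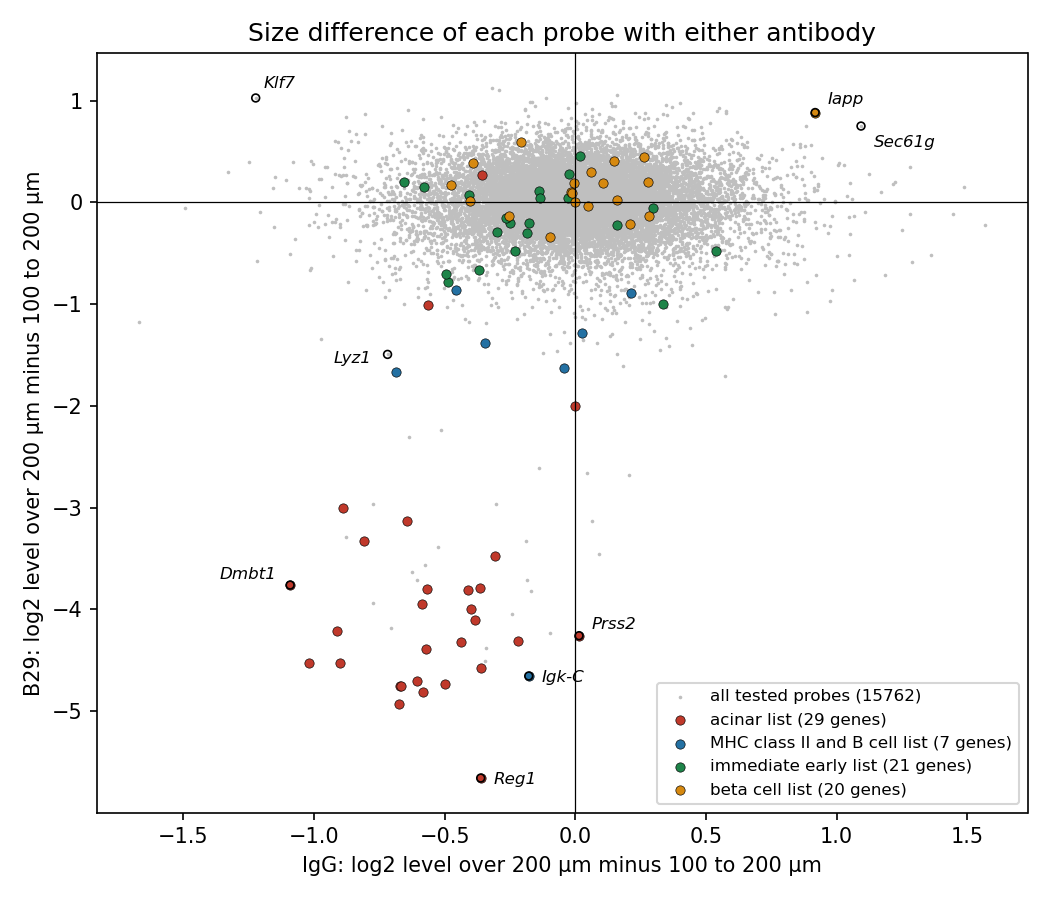
Each point is 1 of the 15762 tested probes, with the difference of large minus medium islets in the IgG pair on the x axis and in the B29 pair on the y axis, both in log2 units. Most of the acinar list sits far below 0 on the y axis and between 0 and -1.1 on the x axis, and Iapp and Sec61g stand out at the upper right.

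Acinar genes had the lowest differences. Of 35 genes on the acinar list, 29 were tested. Of these, 26 were lower in large islets with both antibodies, against 23.5% of all genes. There was no overlap between the large and the medium arrays in all 26 (15.9% of all genes). None was higher with both, and 0 passed the test at an adjusted p under 0.05, while 25 had an unadjusted p under 0.05 (4.69% of all genes). The size of the difference depended on the antibody: the median was -4.21 within B29 and -0.57 within IgG, beside 0.03 and -0.00 over all genes, and 28 genes were at least 2-fold lower within B29 by their measured levels (0.897% of all genes) against 2 within IgG (0.219%). Of the 28, Rbpjl was not well above background in large B29 islets, and 27 were at least 2-fold lower by their lower bounds. At least 1.5-fold lower with both antibodies were 13 genes of the list, beside 0.369% of all genes. In bulk RNA, fewer cells of a type and less RNA per cell cannot be told apart.

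Because acinar genes carry the largest differences, the 250 bases before the start of 3 of them are shown with those of Iapp, the beta cell gene that leads the other side. Acinar enzyme genes are known targets of the PTF1 complex, which reads an E-box, CACCTG, and a TC-box, TTTCCC. Capitals mark these letters or their reverse complement, CAGGTG and GGGAAA, on either strand. The sequences are from RefSeq, build GRCm38.p6, written 5′ to 3′ on the strand of the gene. The Reg1 stretch is chr6:78425733-78425982, plus strand, and that of Cela3b is chr4:137430521-137430770, minus strand. The Cel stretch is chr2:28563404-28563653, minus strand, and that of Iapp is chr6:142298175-142298424, plus strand.
Reg1: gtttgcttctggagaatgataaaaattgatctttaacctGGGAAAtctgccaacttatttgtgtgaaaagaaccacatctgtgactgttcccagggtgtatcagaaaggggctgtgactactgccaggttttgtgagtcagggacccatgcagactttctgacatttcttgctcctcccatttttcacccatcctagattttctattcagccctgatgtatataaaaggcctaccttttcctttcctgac
Cela3b: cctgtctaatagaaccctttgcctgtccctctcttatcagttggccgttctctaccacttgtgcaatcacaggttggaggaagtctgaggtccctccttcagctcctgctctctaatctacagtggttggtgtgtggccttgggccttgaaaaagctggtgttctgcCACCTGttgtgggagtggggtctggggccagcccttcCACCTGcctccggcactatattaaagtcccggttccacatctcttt
Cel: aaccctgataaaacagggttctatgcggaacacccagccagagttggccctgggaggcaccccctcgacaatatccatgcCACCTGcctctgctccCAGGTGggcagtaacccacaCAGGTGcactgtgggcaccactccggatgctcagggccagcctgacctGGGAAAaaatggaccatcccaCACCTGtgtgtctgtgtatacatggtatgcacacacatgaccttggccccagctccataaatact
Iapp: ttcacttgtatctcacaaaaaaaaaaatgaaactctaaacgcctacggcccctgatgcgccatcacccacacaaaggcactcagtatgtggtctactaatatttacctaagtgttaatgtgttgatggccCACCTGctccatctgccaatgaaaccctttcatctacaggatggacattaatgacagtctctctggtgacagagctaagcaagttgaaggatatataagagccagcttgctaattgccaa
CACCTG was found 4 times before Cel, 2 times before Cela3b, 1 time before Iapp and 0 times before Reg1, and TTTCCC 1 time each before Cel and Reg1. Of the 23 tested acinar genes with a promoter in the table, 13 (56.5%) held CACCTG and 7 (30.4%) held TTTCCC, beside 17.2% and 21.9% of all 32851 promoters of the same length. Such a match describes letters in a window and is no measure of binding.

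The secreted proteins come first. Reg1, a lectin of the regenerating family made by acinar cells, was at 6.40 (B29) and 10.40 (IgG) in large islets, against 12.06 (B29) and 10.76 (IgG) in medium islets. Its differences were -5.66 and -0.36, with a mean of -3.01 (SE 1.17) that came almost wholly from the B29 pair. Try4, a trypsinogen, was at 7.81 (B29) and 11.26 (IgG) in large islets, against 12.74 (B29) and 11.93 (IgG) in medium islets. The chymotrypsin-like elastase Cela3b was at 6.76 (B29) and 10.59 (IgG) in large islets, against 11.49 (B29) and 11.09 (IgG) in medium islets. In all 3 genes the array of large B29 islets was the lowest by more than 3 log2 units and the other 3 arrays lay within 2 log2 units of one another. Trypsinogens form a family of near-identical copies, so a probe of Try4, Try5 or Prss2 may also bind its relatives.

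Enzymes of fat digestion followed the same order. Cel, carboxyl ester lipase, was at 6.66 (B29) and 10.20 (IgG) in large islets, against 11.41 (B29) and 10.87 (IgG) in medium islets. Clps, the cofactor of pancreatic lipase, was at 7.58 (B29) and 11.34 (IgG) in large islets, against 12.39 (B29) and 11.93 (IgG) in medium islets. A second Clps probe gave differences of -3.94 (B29) and -0.77 (IgG), beside -4.81 and -0.59 for the first. Pnliprp1, a lipase-related protein, differed by -4.52 and -0.90, and Pnliprp2 by -4.21 and -0.91. A second Pnliprp2 probe gave -3.32 and -0.19, so that its probes disagree in size within IgG.

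Within IgG, the lowest differences of the list were those of Dmbt1 and Sycn. Sycn, syncollin, a zymogen granule membrane protein, was at 6.28 (B29) and 9.80 (IgG) in large islets, against 10.81 with either antibody in medium islets, and its differences were -4.53 and -1.02. Dmbt1, a secreted mucin-like glycoprotein, was at 4.83 (B29) and 6.43 (IgG) in large islets, against 8.59 (B29) and 7.52 (IgG) in medium islets, and its differences were -3.76 and -1.09. These 2 were the only acinar list genes at least 2-fold lower with both antibodies. Cuzd1, a zymogen granule protein, was not well above background in large B29 islets, at least 9.04-fold below medium B29 islets, and was 0.81 log2 units lower within IgG. Rbpjl, the acinar subunit of PTF1, was dim, with 4.22 (B29, not well above background) and 4.71 (IgG) in large islets, against 5.23 (B29) and 5.28 (IgG) in medium islets, at least 1.61-fold lower within B29.

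The members Prss2, Amy2a5 and Bhlha15 departed from the list. Prss2, another trypsinogen, was at 5.31 (B29) and 8.38 (IgG) in large islets, against 9.57 (B29) and 8.37 (IgG) in medium islets, so its 2 IgG arrays were level. Amy2a5, pancreatic amylase, was at 11.97 (B29) and 13.84 (IgG) in large islets, against 13.97 (B29) and 13.84 (IgG) in medium islets, close to the highest value the normalization gives. Bhlha15, a transcription factor of secretory cells, was at 7.77 (B29) and 7.10 (IgG) in large islets, against 7.50 (B29) and 7.46 (IgG) in medium islets, and was the only tested member that was higher within B29. Outside the list, the 4 lowest means among named probes at least 1.5-fold lower with both antibodies were those of Gm5771 (-4.18 and -0.71), Klk1b26 (-3.71 and -0.60), Amy2 (-3.63 and -0.63) and 2210010C04Rik. The last was not well above background in large B29 islets, where it was at least 7.79-fold lower, and it differed by -0.78 within IgG.

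Summed over the 33 listed genes with a probe, the linear acinar signal was 8060 (B29) and 50021 (IgG) in large islets, against 86288 (B29) and 64947 (IgG) in medium islets. Large islets thus had 0.0934 times the medium signal with B29 and 0.770 times with IgG. The small islets had sums of 229724 (B29) and 193841 (IgG), above all 4. Without the B29 pair the median difference of the list was -0.57, and without the IgG pair it was -4.21. How far less acinar RNA raised the share of other genes in large B29 islets was not tested. The median difference of all genes in that pair, 0.03, cannot show it, because quantile normalization gives every array the same distribution of values.

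**Figure D2:**
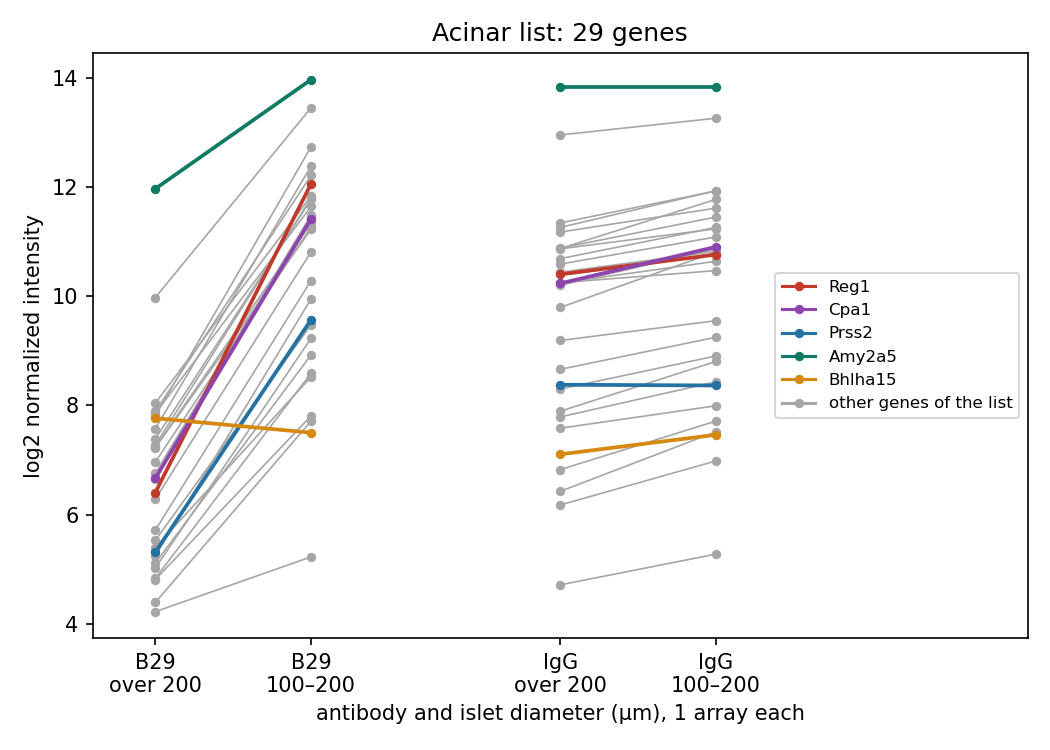
Log2 normalized intensity of the 29 tested acinar genes on the 4 arrays, with lines joining the large (over 200 µm) and the medium (100 to 200 µm) array of an antibody. Nearly all lines are steep in the B29 pair and shallow in the IgG pair; Prss2 and Amy2a5 are flat in the IgG pair, and Bhlha15 is slightly higher in large islets in the B29 pair.

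Immune genes separated 1 array, that of medium B29 islets. Immunoglobulin kappa, the light chain of most mouse antibodies, was measured by the Igk-C probe at 4.63 (B29) and 4.77 (IgG) in large islets, against 9.28 (B29) and 4.95 (IgG) in medium islets. The 3 other arrays lay under 5, close to the lowest detected level. H2-Ea, a chain of an MHC class II molecule that presents peptides to helper T cells, was at 7.24 (B29) and 6.80 (IgG) in large islets, against 8.91 (B29) and 7.49 (IgG) in medium islets. Its differences were -1.67 and -0.69, with a mean of -1.18 (SE 0.26), and it was the only gene of the list at least 1.5-fold lower with both antibodies.

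Of 14 genes on the list of MHC class II and B cell genes, 7 were tested and 5 of them were lower in large islets with both antibodies, against 23.5% of all genes, with 0 past the adjusted threshold. The median difference was -1.38 within B29 and -0.18 within IgG. Cd74, the invariant chain that guides class II assembly, differed by -1.38 and -0.35. Its other detected probes gave -1.055 and 0.02, and -0.22 and -0.11. A second detected H2-Ab1 probe gave -1.05 and 0.15, so the probes of both genes disagree in sign within IgG. The values below are those of the counted probes. H2-Ab1 differed by -1.63 and -0.05, H2-Eb1 by -1.28 and 0.03, H2-DMa by -0.86 and -0.46, and H2-DMb1 by -0.89 within B29, while it was not well above background in medium IgG islets. The B cell marker Ms4a1, the class II chain H2-Aa and the class II regulator Ciita were below detection on all 4 arrays. Summed linear signal of the list was 695 (B29) and 662 (IgG) in large islets, against 2445 (B29) and 795 (IgG) in medium islets.

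Macrophage genes differed less as a group. Lyz1, lysozyme, was at 7.42 (B29) and 6.37 (IgG) in large islets, against 8.91 (B29) and 7.09 (IgG) in medium islets, with differences of -1.49 and -0.72. Lyz2, the lysozyme of macrophages, differed by -1.35 and 0.03, and Laptm5, a lysosomal protein of blood cells, by -0.99 and 0.09. A second Lyz2 probe differed by -0.66 within B29 and was not well above background in large IgG islets. Of 11 tested macrophage genes 3 were lower with both antibodies and 0 were higher with both, against 23.5% and 27.1% of all genes. The defining genes C1qa (-0.20 and 0.01), Csf1r (-0.13 and 0.05) and, within B29, Cd68 (-0.23; not well above background in medium IgG islets) differed little, and Adgre1, Mrc1 and Cd163 were not detected. T cell markers Cd3e, Cd3d, Cd3g, Cd4 and Cd8a were below detection on all 4 arrays. Another gene of the T cell list, Cd8b1, had a probe detected on all 4 arrays, while its other probes were not detected. That probe was at 9.72 (B29) and 9.23 (IgG) in large islets, against 9.17 (B29) and 9.38 (IgG) in medium islets. Thy1, also on that list, was detected too and differed by -0.21 and 0.28.

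**Figure D3:**
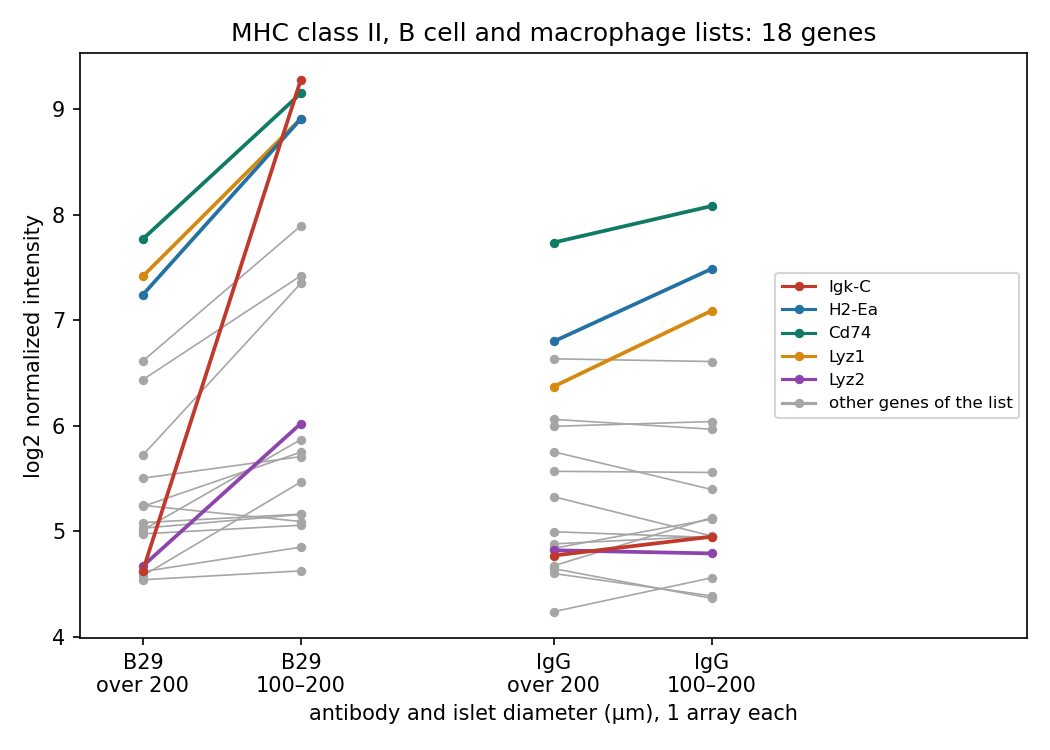
Log2 normalized intensity of the 18 tested genes of the MHC class II, B cell and macrophage lists on the 4 arrays, with lines joining the large and the medium array of an antibody. Igk-C reaches 9.28 on the array of medium B29 islets and stays under 5 on the others.

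On the higher side of large islets a beta cell hormone and a translocon subunit led. Iapp, islet amyloid polypeptide or amylin, is stored and released with insulin. It was at 10.58 (B29) and 10.66 (IgG) in large islets, against 9.70 (B29) and 9.75 (IgG) in medium islets. The large arrays differed from each other by under 0.1 log2 units, as did the medium arrays, and the groups did not overlap. The mean difference was 0.90 (SE 0.15), a 1.87-fold higher level, with an unadjusted p of 0.00162 and an adjusted p of 0.940 in the limma fit. In small islets Iapp was at 9.35 (B29) and 9.51 (IgG), below all 4 arrays.

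Sec61g, the gamma subunit of the SEC61 channel through which new secretory proteins enter the endoplasmic reticulum, was at 10.56 (B29) and 10.47 (IgG) in large islets, against 9.81 (B29) and 9.37 (IgG) in medium islets. Its mean difference was 0.92 (SE 0.17), a 1.89-fold higher level, with an unadjusted p of 0.00239 and an adjusted p of 0.940 in the limma fit. Small islets, at 10.05 (B29) and 10.20 (IgG), lay between the classes. Iapp and Sec61g each had 1 probe that was detected, so no other probe of the array checks them.

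Among the other probes at least 1.5-fold higher with both antibodies, 5 had further detected probes of their gene to set beside them. Fzr1, an activator of the anaphase-promoting complex, was at 8.78 (B29) and 7.95 (IgG) in large islets, against 8.03 (B29) and 7.07 (IgG) in medium islets, so that the large IgG array lay below the medium B29 array. A further 2 detected Fzr1 probes gave differences of 0.17 and -0.55, and of 0.05 and -0.28. The others were Klc1, a kinesin light chain (0.70 and 0.62), Golm2, a Golgi membrane protein (0.64 and 0.63), Ptdss2, a phosphatidylserine synthase (0.59 and 0.65), Sri, the calcium-binding protein sorcin (0.62 and 0.59), and Lum, the matrix proteoglycan lumican (0.62 and 0.60). Ptdss2 was the only 1 of these 5 genes whose further detected probes were all higher in large islets with both antibodies (0.21 and 0.53). The further detected Klc1 probes were lower with both antibodies (-0.07 and -0.19, -0.21 and -0.41, -0.17 and -0.13) or, for the brightest, level (-0.00 and 0.03).

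Among the 15 highest means with the same sign in both pairs, 11 genes had a further detected probe, and in 3 of them (Ric8b, Afdn and Pex7) every such probe was higher with both antibodies. Ric8b, a chaperone of G protein alpha subunits, was at 7.33 (B29) and 6.82 (IgG) in large islets, against 6.43 (B29) and 6.25 (IgG) in medium islets. Afdn, the junction protein afadin, was at 8.09 (B29) and 7.82 (IgG) in large islets, against 7.53 (B29) and 6.92 (IgG) in medium islets. Gjd2 encodes connexin 36, the gap junction protein that couples beta cells electrically. Its 3 probes gave differences of 0.54 and 0.86, of 0.26 and 0.33, and of 0.55 and -0.09, so that 1 of them was level within IgG. Zranb2 (0.15 and 1.49) and Lrp12 (0.35 and 1.28) owed their place to the IgG pair, and other detected probes of these genes went the other way within IgG (-0.15 for Zranb2, -0.45 for Lrp12). Nab2, a corepressor of EGR factors, differed by 0.88 and 0.58.

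**Figure D4:**
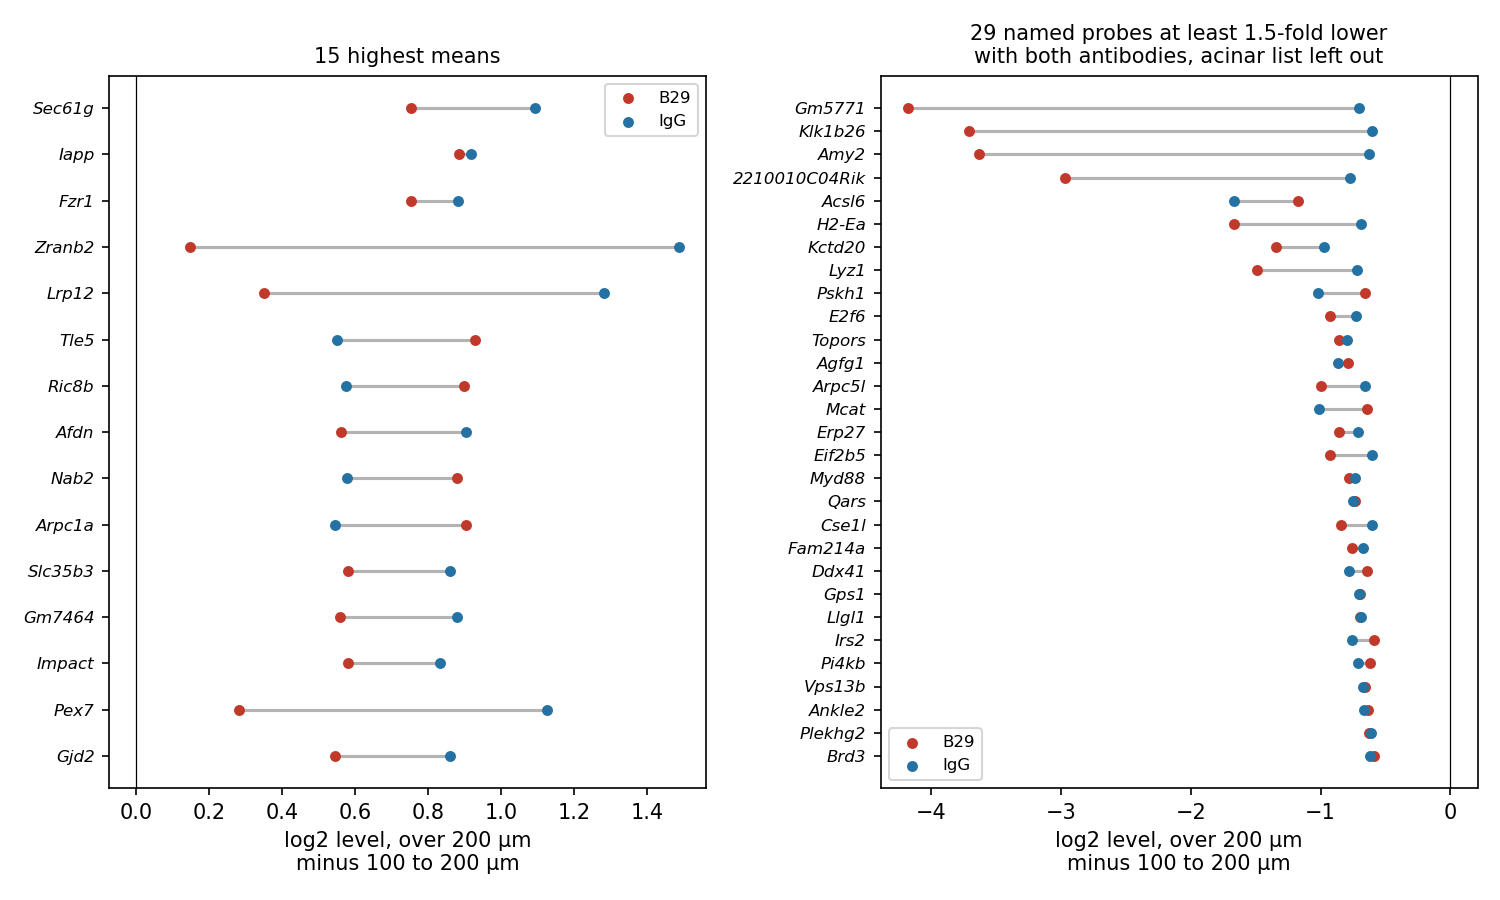
Differences of large minus medium islets in log2 units, with B29 and IgG as separate points joined by a line. The left panel holds the 15 highest means with the same sign in both pairs and the right panel the 29 named probes at least 1.5-fold lower with both antibodies that are not on the acinar list; points of the 2 antibodies lie close together for Iapp, Gps1, Llgl1 and Qars and far apart for Zranb2, Gm5771, Klk1b26 and Amy2.

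On the lower side, 14 of the 47 probes that were at least 1.5-fold lower with both antibodies belonged to the acinar list, 4 had no gene name and 29 stood for other named genes. Of the 29, Gm5771, Klk1b26, Amy2 and 2210010C04Rik shared the pattern of the acinar list. They were lowest in large B29 islets and higher in small islets, at 9.83 or more, than on any of the 4 arrays. Erp27, also among the 29, was likewise higher in small islets, at 8.14 (B29) and 7.19 (IgG), than on any of the 4. It was at 5.03 (B29) and 5.16 (IgG) in medium islets and was not well above background in large islets. Absence from the list therefore does not show that a gene is not acinar. Acsl6, an enzyme that activates long-chain fatty acids, was at 4.67 (B29) and 4.32 (IgG, not well above background) in large islets, against 5.85 (B29) and 5.99 (IgG) in medium islets. It was at least 2.78-fold lower within IgG, but a second detected Acsl6 probe gave 0.26 and 0.09. Kctd20, a BTB domain protein, was at 6.04 (B29) and 5.97 (IgG) in large islets, against 7.38 (B29) and 6.95 (IgG) in medium islets. Its other 3 detected probes were also lower with both antibodies, by 0.05 to 0.42 log2 units, all less than the 1.35 and 0.98 of the first.

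Eif2b5, the catalytic subunit of the translation factor eIF2B, had 3 detected probes and all were lower in large islets with both antibodies. The first was at 6.83 (B29) and 7.16 (IgG) in large islets, against 7.76 (B29) and 7.77 (IgG) in medium islets, and the other 2 differed by -0.63 and -0.38, and by -0.30 and -0.31. Irs2, an insulin receptor substrate that supports beta cell growth and survival, was at 7.54 (B29) and 7.59 (IgG) in large islets, against 8.13 (B29) and 8.35 (IgG) in medium islets, with a mean of -0.67 (SE 0.16). Myd88, the adaptor of Toll-like and interleukin-1 receptors, was at 6.89 (B29) and 6.77 (IgG) in large islets, against 7.67 (B29) and 7.50 (IgG) in medium islets, and its second probe differed by -0.16 and -0.20. Of these 29 genes, 13 had a further detected probe, and Eif2b5, Kctd20, Llgl1 and Myd88 were the 4 in which every one was lower with both antibodies. Erp27, counted by its measured levels, was detected on neither large array and is shown only to be at least 1.41-fold (B29) and 1.56-fold (IgG) lower in large islets, which leaves 28 of these genes and 46 of the 47 probes at 1.5-fold or more by their lower bounds.

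Endocrine identity genes other than Iapp differed little. Of 20 tested beta cell genes, 7 were higher in large islets with both antibodies and 2 lower, against 27.1% and 23.5% of all genes, and 0 passed the adjusted threshold. Foxa2, a pioneer factor of endoderm, differed by 0.44 and 0.26, Trpm5, a cation channel of beta cells, by 0.20 and 0.28, and Abcc8, the sulfonylurea receptor of the ATP-sensitive potassium channel, by 0.30 and 0.06. The glucose transporter Slc2a2 (-0.04 and 0.05) and the maturity hormone Ucn3 (0.02 and 0.16) were nearly level. Pdx1 (0.59 and -0.21) and Nkx6-1 (0.39 and -0.39), transcription factors of beta cells, had opposite signs. G6pc2 and Nkx2-2 were the 2 that were lower with both. The glucagon gene Gcg was at 13.97 (B29 and IgG) in large islets, against 13.84 (B29) and 13.97 (IgG) in medium islets, near the top of the scale. Somatostatin, Sst, differed by 0.11 and 0.05, and Ppy, pancreatic polypeptide, by 0.55 and -0.39.

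Among 15 tested genes of the secretory granule, 4 were higher and 5 lower with both antibodies, against 27.1% and 23.5% of all genes. Vgf, a granin-like precursor, was at 6.52 (B29) and 6.42 (IgG) in large islets, against 6.05 (B29) and 5.79 (IgG) in medium islets, with no overlap. Pcsk2, a convertase that cleaves proinsulin and proglucagon, was at 7.54 (B29) and 7.99 (IgG) in large islets, against 8.52 (B29) and 8.30 (IgG) in medium islets. Chgb, chromogranin B, differed by 0.65 within B29 and by -0.47 within IgG.

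Immediate early genes, which neurons and beta cells switch on within minutes of depolarization or of handling, were lower more often than higher. Of 21 tested, 9 were lower with both antibodies and 1 was higher, against 23.5% and 27.1% of all genes, and 7 had both large arrays below both medium arrays (15.9% of all genes). The medians were -0.20 (B29) and -0.18 (IgG). Jun, a subunit of AP-1, was at 8.07 (B29) and 8.51 (IgG) in large islets, against 8.85 (B29) and 9.00 (IgG) in medium islets. Its mean difference was -0.63 (SE 0.16, adjusted p 0.940 in the limma fit), and the groups did not overlap. Npas4, a factor induced by calcium entry, was at 6.28 (B29) and 7.12 (IgG) in large islets, against 6.94 (B29) and 7.49 (IgG) in medium islets, and here the groups overlapped. Egr2, a zinc finger factor, was not well above background in large B29 islets, where it was at least 1.58-fold lower, and it differed by -0.49 within IgG. The bright members Fos (0.28 and -0.02), Fosb (0.12 and -0.14) and Junb (0.04 and -0.14) did not share the lower level.

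Genes of supporting cells gave mostly small differences, with Lum (0.62 and 0.60) and Dcn among the larger ones. Of 22 tested fibroblast and matrix genes, 8 were higher and 1 lower with both antibodies, against 27.1% and 23.5% of all genes. The gene lower with both was Rgs5, a pericyte gene, at -0.34 and -0.42. In 8 genes of the list both large arrays lay above both medium arrays (18.7% of all genes). Dcn, the proteoglycan decorin, was at 7.06 (B29) and 7.04 (IgG) in large islets, against 6.76 (B29) and 6.14 (IgG) in medium islets. Col6a2 (0.42 and 0.51) and Col3a1 (0.25 and 0.35), collagen chains, were also higher with both, whereas the basement membrane chains Col4a1 (0.55 and -0.50) and Col4a2 (0.42 and -0.39) had opposite signs. Of 16 tested endothelial genes 3 were higher and 3 lower with both, against 27.1% and 23.5% of all genes. The ductal list had 9 tested genes, with 5 higher and 2 lower, against the same shares.

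In larger islets oxygen has a longer way to diffuse, which is why genes induced by hypoxia were listed. Of 21 tested genes, 5 were higher and 3 lower with both antibodies, close to or below the 27.1% and 23.5% of all genes, with medians of 0.03 and 0.01. Vegfa, the vascular growth factor, was at 9.03 (B29) and 9.26 (IgG) in large islets, against 8.71 (B29) and 9.31 (IgG) in medium islets. Slc2a1, a glucose transporter that hypoxia induces, was at 5.51 (B29) and 5.97 (IgG) in large islets, against 6.01 (B29) and 6.25 (IgG) in medium islets. Of 13 glycolysis genes 3 were higher and 5 lower, against 27.1% and 23.5% of all genes, with Pgk1 at -0.34 in both pairs. Slc16a3, 1 of the 3, was detected on the large arrays only and passed the filter through that class. Ldha was not well above background in large B29 islets (at least 1.24-fold lower) and differed by -0.23 within IgG. Of 35 respiratory chain genes 13 were higher and 4 lower, against 27.1% and 23.5% of all genes. The medians of this list were 0.02 (B29) and 0.18 (IgG). Ndufs3, 1 of the 13, differed by 0.05 and 0.63. Uqcrc2, a core subunit of complex III and 1 of the 4, had the lowest mean of the list, with differences of -0.57 and -0.49.

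Proliferation genes were dim and none was higher with both antibodies, against 27.1% of all genes. Of 21 tested, 8 were lower with both (23.5% of all genes), 4 had both large arrays below both medium arrays, a share near the 15.9% of all genes, and the medians were -0.23 (B29) and -0.03 (IgG). Cdk1, the mitotic kinase, was at 5.02 (B29) and 5.24 (IgG) in large islets, against 5.33 (B29) and 5.51 (IgG) in medium islets, which did not overlap. Mki67, the marker of cycling cells, differed by -0.36 and -0.00. Of 15 tested inflammation genes 8 were lower and 3 higher with both, against 23.5% and 27.1% of all genes. Of the 15, Icam1 and Cxcl10 were detected on the medium arrays only and passed the filter through that class, so their direction adds nothing to the count. Tnfaip3, a brake on NF-kB, differed by -0.81 and -0.22, and the chemokine Cxcl1 by -0.42 and -0.49. Of 17 interferon genes 8 were lower and 3 higher, against 23.5% and 27.1% of all genes. Rsad2 was at -0.56 and -0.31 and the class I gene H2-T23 at 0.58 and 0.38.

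**Figure D5:**
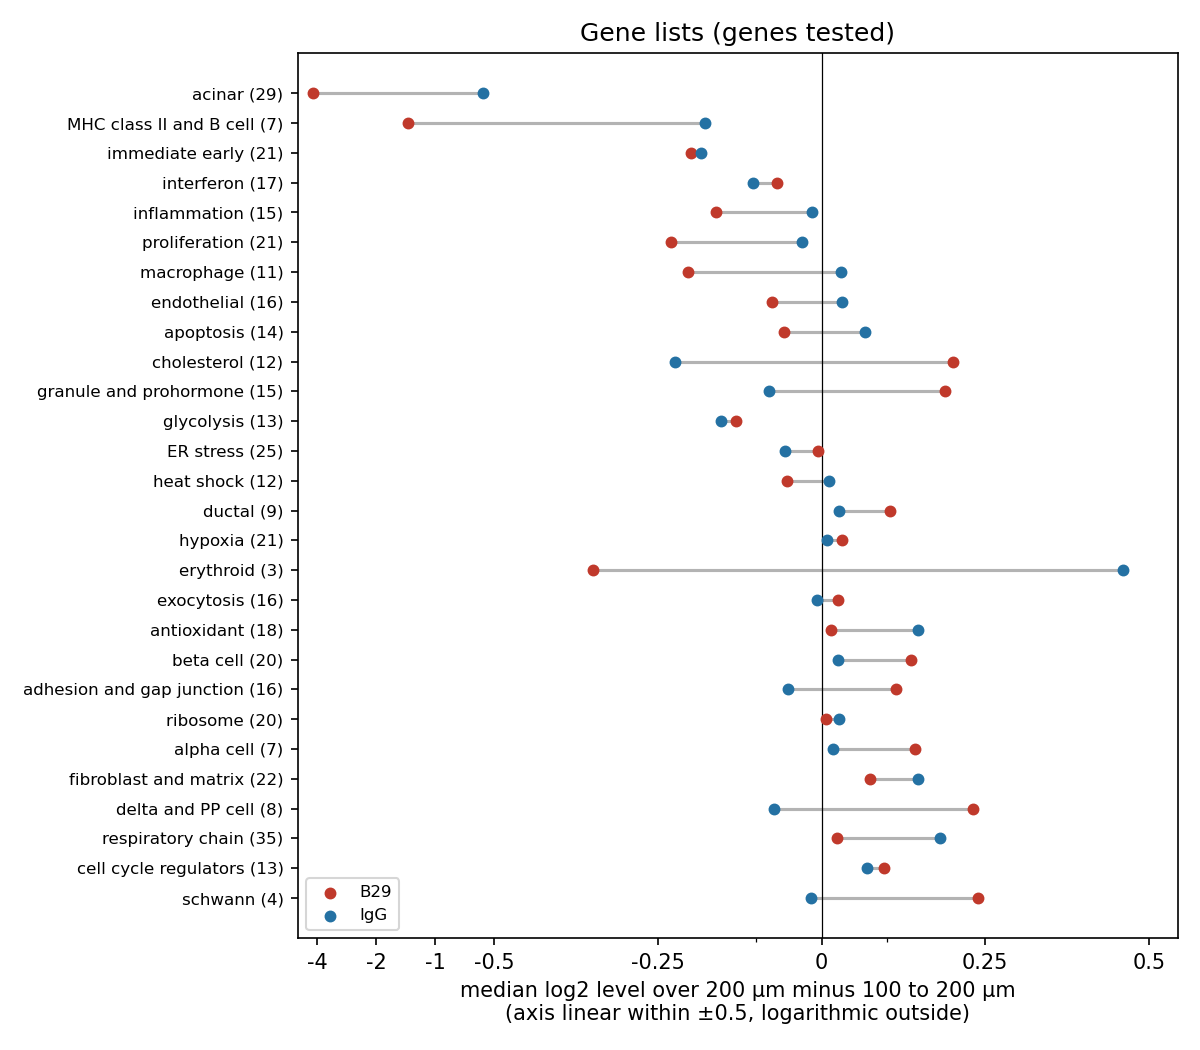
Median difference of large minus medium islets for the 28 gene lists with at least 3 tested genes (the study's own genes are left out), in log2 units, for B29 and IgG separately, with the number of tested genes in brackets. The axis is linear within 0.5 of 0 and logarithmic outside. The acinar list is lowest with both antibodies, the MHC class II and B cell list is far lower in the B29 than in the IgG pair, and most other lists lie within 0.25 of 0.

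Genes of the study's own question differed little or differed between the pairs. Serpinb13, the target of B29, was below detection on all 4 arrays. Neurog3, the factor of endocrine progenitors, was at 6.36 (B29) and 6.00 (IgG) in large islets, against 6.26 (B29) and 5.19 (IgG) in medium islets. Cish, a suppressor of cytokine signalling, was at 6.79 (B29) and 8.15 (IgG) in large islets, against 6.72 (B29) and 8.54 (IgG) in medium islets, so that the arrays lay apart by antibody and overlapped by diameter. Notch1 differed by -0.15 and -0.36, and E-cadherin, Cdh1, by 0.02 and -0.10.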

How the data were processed

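Islet total RNA was amplified, labelled with biotin and measured on Illumina bead arrays, per the labels. For every probe and array the deposited raw table gives an intensity and the p-value of its detection; the authors' value table holds log2 values, and limma 3.34.9 is named per the submitters' processing notes. The deposited log2 values match a background correction followed by quantile normalization: the neqc function of limma 3.58.1 (R 4.3.3, offset 16) on the deposited intensity gave them back within 0.00037. Of the raw rows, 22 held no usable signal and were left out, 2 of them detected on at least 2 of the 4 arrays.

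Probes with a detection p under 0.05 on at least 2 of the 4 arrays were fitted with limma (lmFit, eBayes; antibody and size as additive factors), with Benjamini-Hochberg adjustment over 15762 probes at 0.05. Antibody is the pairing: both arrays of a pair share the antibody given, per the labels. With 1 array per antibody and class, SEs and p-values rest on the spread of the size difference between the 2 pairs. By eBayes this spread is drawn toward one shared by all probes, so probes with close pairs have nearly equal SEs. No spread between replicate arrays enters them, and that the difference itself differs between antibodies could not be tested. Fold counts and list counts carry no test and use the measured levels. A fold to a probe not well above background took that array's lowest detected level in its place and is a lower bound.

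Names came from the platform's probe table and a RefSeq table (GRCm38.p6): 35784 probes had 1 symbol and 9497 none. A list's gene is its probe with the highest mean. Named genes were the 15 highest and 15 lowest means with 1 sign in both pairs and detected on both arrays of the higher class, the 8 widest gaps between pairs in each direction, up to 4 genes of each list, and the study's own genes; members and the 32 lists were chosen with earlier results of these data known, and other genes, among them all probes at least 1.5-fold apart in both pairs, were named after their values were seen. The fit was tested on simulated data. Scanner chip and scan date were not given in the sources used here. Alternatives were other values, scalings, background corrections, filters, eBayes settings, 1 probe per gene, all 6 arrays, and arrays or pairs left out.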

Additional observations from a re-analysis of the deposited data

Results flagged for a closer look

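In 6 named genes the level was at least 1.5-fold higher in large than in medium islets with B29 and at least 1.5-fold lower with IgG. Across all tested probes, 18 (0.114%) had such a difference and 21 (0.133%) had the reverse, so the 6 are not a complete set. The gap between the pairs (B29 difference minus IgG difference, log2 units) was not tested, because 1 array per antibody and class leaves no spread for it.

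Klf7, a Krüppel-like transcription factor, differed by 1.03 with B29 and -1.22 with IgG, a gap of 2.25, while its other 2 detected probes differed by -0.08 and -0.69, and by -0.11 and -0.99. Denn2b had a gap of 1.72 (0.84 and -0.88), but a second probe gave 0.07 and 0.53. Rab5a, a GTPase of early endosomes, had a gap of 1.68 (0.87 and -0.81), and its second probe gave 0.69 and 0.14. Rabl2 had a gap of 1.57 (0.70 and -0.87), Fads1, a fatty acid desaturase, a gap of 1.56 (0.91 and -0.64), and Trub2, a pseudouridine synthase, a gap of 1.52 (0.60 and -0.92).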

How the results depend on the processing

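The count of probes at an adjusted p under 0.05 in the limma fit was 0 as reported and in 17 of 19 other settings, the own neqc values, cyclic loess, median centring, both other background corrections, all filters and 1 probe per gene among them. With no replicate block for the antibody pair, 0 probes were called and 799 had an unadjusted p under 0.05, beside 679 with it. In the fit of all 6 arrays, leaving out 1 array gave between 0 and 66 calls: 3 without the medium IgG array (Igk-C, Coro1a and Cd52, smallest adjusted p 4.77e-04) and 66 without the large IgG array, all lower in large islets and 31 of them probes of acinar list genes (smallest adjusted p 1.25e-10). A class with 1 array is there assumed to vary like the others. Unadjusted calls numbered 2597 with no filter and 410 with 1 probe per gene.

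The count of probes at least 2-fold higher with both antibodies was 0, and 8 at 1.5-fold, and within 1 pair alone it lay between 5 (B29) and 27 (IgG). The count lower with both was 3, and 0 with no background correction or with normexp at an offset of 50, and 47 at 1.5-fold, and within 1 pair alone it lay between 26 (IgG) and 121 (B29). The immediate early median of -0.21 was -0.26 with median centring, -0.13 with no background correction and -0.14 with normexp at an offset of 50, and between -0.20 and -0.18 within 1 pair. Of 785 values of single genes under other values, scalings or background corrections, 4 changed sign: Hba-a1 to -0.0277 and Rab5a to -0.0360 with median centring, and Denn2b to 0.00801 with no background correction and to 0.00205 with normexp at an offset of 50. The cause of these changes was not tested.

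Detection limits what can be read of dim genes: between 32.7% and 35.0% of probes were detected per array, and differences of probes near 4.5 sit at the background.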
